A study of Sus scrofa with 4 samples.

Results

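Immediate-early genes are switched on within minutes of a growth signal, a wound or mechanical stress, because the kinases and transcription factors that activate them are already in place and no new protein has to be made first. Many encode transcription factors, among them the FOS, JUN and ATF proteins that pair up as the dimer called AP-1, and others encode brakes that end the response. In skin they are known both for roles in keratinocyte differentiation and wound healing and for rising while tissue is being taken apart into single cells. The 10 genes described here, FOS, FOSB, JUN, JUNB, JUND, EGR1, ATF3, DUSP1, IER2 and ZFP36, were taken by name from the 29837 named genes of the count table. Each of the 10 names matched 1 entry, and all 10 were among the 15980 genes that passed the filter on low counts.

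The libraries came from epidermal cells of 2 juvenile pigs, 88R and 95R. The pigs carried a green fluorescent histone (H2B-GFP) inserted at exon 1 of a single LGR5 allele, LGR5 being the R-spondin receptor used to mark hair follicle stem cells. The cells were sorted into those with bright GFP (LGR5-high) and those without it (LGR5-negative), and each pig gave 1 library of either population, so that n = 2 pigs in each. Cells of low GFP formed a gate of their own and are not analysed here, so LGR5-negative is not all of the remaining epidermis. Undissociated skin is not analysed here. Both populations had been through Dispase digestion, trypsin, vortexing and sorting as live cells. Dispase was applied either for a short time at body temperature or overnight in the cold, and the sources do not say which was used for which pig. The pig line was made by nuclear transfer from clonal edited cells, and whether 88R and 95R were clones or their offspring is not stated. No reference sequence of these genes was used here, so no sequence is shown.

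Named genes received 30696803 to 32463362 counts in a library, so depth was nearly equal. The sort showed in LGR5 itself, whose counts were 4551 (pig 88R) and 6224 (pig 95R) among LGR5-high cells but 36 and 109 among LGR5-negative cells. Markers of suprabasal keratinocytes separated the populations strongly, with summed levels of 6059 to 6647 CPM in LGR5-high and 57474 to 66566 CPM in LGR5-negative. CPM here are counts per 1000000 counts after scaling by the trimmed mean of M-values (TMM). The basal keratinocyte list was nearer, at 28528 to 30553 CPM and 33301 to 36311 CPM. KRT14 of that list was not analysed here. In such bulk samples fewer cells of a type and less RNA per cell cannot be told apart.

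All 10 genes were abundant in every library. Their mean over the 4 libraries ran from 419 CPM for IER2 to 4055 CPM for FOSB. Levels are not compared between genes, since transcript lengths were not used. The 10 genes together held 1.73% of all counts in LGR5-high of pig 88R (95% Wilson interval 1.73% to 1.73%) and 2.07% (2.06% to 2.07%) in LGR5-negative of the same pig. In pig 95R they held 2.21% (2.21% to 2.22%) in LGR5-high and 2.67% (2.66% to 2.67%) in LGR5-negative. The share was thus higher in LGR5-negative within each pig and higher in pig 95R within each population. These intervals treat every read as independent. PCR copies are not, so even the counting error is understated, and the spread between animals is not covered.

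LGR5-high and LGR5-negative were compared to ask which transcripts differ between cells with high and with no LGR5 reporter signal. ATF3, FOSB, JUND, DUSP1 and JUNB were lower in LGR5-high. The test was the quasi-likelihood test of edgeR, its p-values were adjusted after Benjamini and Hochberg over all 15980 genes, and a gene was called at an adjusted value under 0.05. FOS, JUN, EGR1, IER2 and ZFP36 did not pass, and none of the 10 was higher, also at an unadjusted p-value under 0.05. So 5 of the 10 genes were lower, while 22% of all tested genes were lower and 22.7% were higher. Fold changes below are log2 of LGR5-high over LGR5-negative, and ± SE is the standard error of the fit. Abundant genes were lower more often, with 41.3% of the 2009 tested genes of at least 100 CPM called lower, a level chosen after the values had been seen. The count for the 10 genes is therefore close to that of other abundant genes. None changed 2-fold, whereas 27.4% of all tested genes had a log2 fold change beyond 1 in size. Their median log2 fold change was -0.43, beside 0.02 over all tested genes and -0.18 over the abundant ones.

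Each pig gave both populations, so the pig can enter the test as a replicate block. With the block 9 of the 10 genes were lower, all but FOS, against 27.2% of all tested genes and 46.5% of the abundant ones. The fold changes hardly moved and the standard errors shrank to between 0.0873 and 0.0938 on the log2 scale. The fit shares its estimate of spread over all genes, so these errors do not measure the spread of each gene alone. All 10 genes had a lower value in LGR5-high than in LGR5-negative within pig 88R and again within pig 95R, where 49.0% and 48.9% of all tested genes did. The 2 libraries of LGR5-high lay below both LGR5-negative libraries for 7 of the 10 genes, compared with 37.4% of all tested genes, and above both for none of them, compared with 39.2%. The shares within a pig and without overlap are over all tested genes. Abundant genes, which were called lower more often, were not counted apart.

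**Figure D1:**
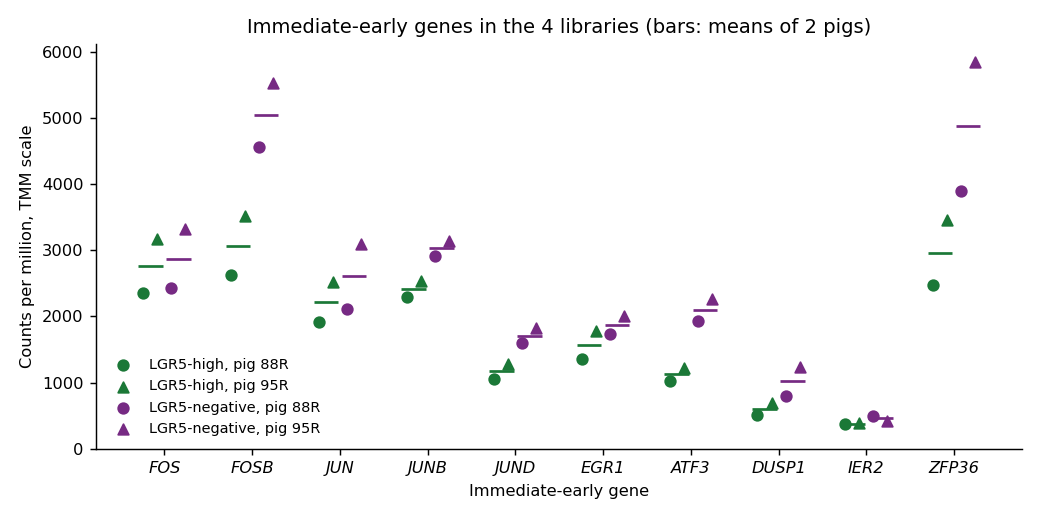
Level of each immediate-early gene in CPM (TMM scale, vertical axis) in the 4 libraries, with green for LGR5-high, purple for LGR5-negative, circles for pig 88R and triangles for pig 95R; short bars are means of the 2 pigs. Green points lie below purple points of the same shape for every gene, and triangles lie above circles of the same colour except for IER2 in LGR5-negative.

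The FOS genes encode the partners that need a JUN protein to bind DNA. FOSB had 2618 and 3517 CPM in LGR5-high of pigs 88R and 95R, and 4566 and 5518 CPM in LGR5-negative. The populations did not overlap, with means of 3068 ± 636 and 5042 ± 673 CPM (SD, n = 2). The log2 fold change of FOSB was -0.72 (± 0.173 SE, edgeR adjusted p = 0.0197). FOS, its closest relative on the list, had 2346 and 3167 CPM in LGR5-high and 2427 and 3316 CPM in LGR5-negative. Here the populations overlapped almost completely and the 2 libraries of a pig lay side by side, with log2 differences of -0.05 and -0.07 between populations. The log2 fold change of FOS was -0.06 (± 0.202 SE, edgeR adjusted p = 0.832). The ratio of FOSB to FOS counts needs no scaling between libraries. It was 1.12 and 1.11 in LGR5-high and 1.88 and 1.66 in LGR5-negative, so that the pigs were close to each other within LGR5-high and every LGR5-high value was below every LGR5-negative one. On the log2 scale that ratio was lower in LGR5-high by 0.75 in pig 88R and by 0.58 in pig 95R.

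The JUN genes encode proteins that can bind DNA with each other or with a FOS or ATF partner. JUND, which is known for steady expression in resting cells, had 1060 and 1285 CPM in LGR5-high and 1595 and 1817 CPM in LGR5-negative. The fold change was -0.54 on the log2 scale (± 0.128 SE, edgeR adjusted p = 0.0181), and the populations did not overlap. JUNB, which is known to restrain proliferation in the epidermis, had 2298 and 2536 CPM in LGR5-high and 2915 and 3138 CPM in LGR5-negative. This was the smallest difference that passed, with a log2 fold change of -0.32 (± 0.0991 SE, edgeR adjusted p = 0.0421) and little spread between the pigs. JUN itself, the growth-promoting member of the family, had 1917 and 2517 CPM in LGR5-high and 2118 and 3094 CPM in LGR5-negative. Its libraries overlapped, because LGR5-high of pig 95R exceeded LGR5-negative of pig 88R. The log2 fold change of JUN was -0.23 (± 0.215 SE, edgeR adjusted p = 0.414), and -0.22 with the replicate block (edgeR adjusted p = 0.0442). The ratio of JUNB to JUN counts was 1.20 and 1.01 in LGR5-high and 1.38 and 1.01 in LGR5-negative, which overlapped. Between populations it differed by -0.20 (88R) and -0.01 (95R) on the log2 scale. A call for JUNB without one for JUN therefore does not show that these genes differed from each other. For JUND over JUN the log2 differences were -0.45 and -0.20, and for FOS over JUN 0.10 and 0.23.

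ATF3 encodes a stress-induced factor that often acts as a repressor. It showed the largest difference of the 10 genes, with 1024 and 1224 CPM in LGR5-high and 1928 and 2259 CPM in LGR5-negative. Its mean was 1.86-fold higher in LGR5-negative, and the 2 pigs gave nearly the same log2 fold change, -0.91 in 88R and -0.88 in 95R. The estimate was -0.90 (± 0.131 SE, edgeR adjusted p = 0.00335). Relative to FOS, ATF3 counts were lower in LGR5-high by 0.86 and 0.82 on the log2 scale in pigs 88R and 95R, and relative to JUN by 0.77 and 0.59. EGR1 encodes a zinc finger factor induced through the serum response factor. It had 1352 and 1776 CPM in LGR5-high and 1736 and 2006 CPM in LGR5-negative, which overlapped, and a log2 fold change of -0.26 (± 0.154 SE, edgeR adjusted p = 0.222). With the replicate block the adjusted p-value of EGR1 was 0.0177. The ratio of EGR1 to FOS counts differed between populations by -0.31 (88R) and -0.11 (95R) on the log2 scale.

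Of the genes that end the response, DUSP1 encodes a phosphatase that switches off MAP kinases. It had 505 and 688 CPM in LGR5-high and 802 and 1232 CPM in LGR5-negative, without overlap but with a wide spread between the pigs. The log2 fold change was -0.77 (± 0.238 SE, edgeR adjusted p = 0.0439). ZFP36 encodes tristetraprolin, which speeds the decay of short-lived messenger RNAs. Its values were 2471 and 3459 CPM in LGR5-high and 3898 and 5842 CPM in LGR5-negative, again without overlap. With a log2 fold change of -0.72 (± 0.240 SE, edgeR adjusted p = 0.0561) it missed the threshold in spite of a difference of the size of FOSB, and with the replicate block it passed (adjusted p = 2.69e-06). The ratio of ZFP36 to DUSP1 counts was between 4.74 and 5.03 in all 4 libraries. IER2, a nuclear protein gene of less defined role, had 376 and 384 CPM in LGR5-high and 496 and 419 CPM in LGR5-negative. The log2 fold change was -0.27 (± 0.104 SE, edgeR adjusted p = 0.0829), and 0.024 was the adjusted p-value with the replicate block.

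**Figure D2:**
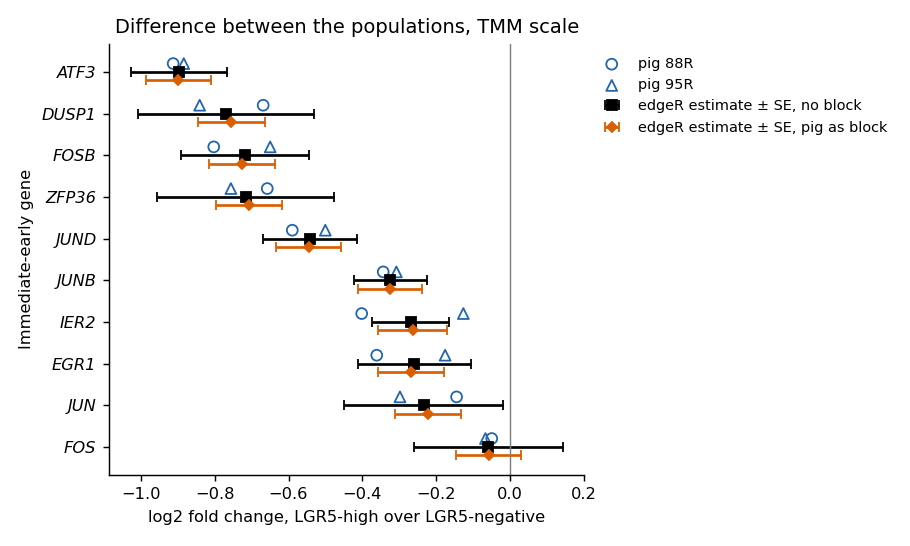
Log2 fold change of LGR5-high over LGR5-negative (horizontal axis) for each immediate-early gene, as the edgeR estimate without a block (black squares) and with the pig as block (orange diamonds), both with standard errors, and as the value of each pig (open blue symbols). ATF3 lies farthest from 0 at -0.90 and FOS nearest at -0.06, and the bars are shorter with the block for every gene.

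The pigs also differed, and 5 of the 10 genes passed a test of it. In LGR5-high all 10 were higher in pig 95R than in pig 88R, and 50.6% of all tested genes were. In LGR5-negative 9 of the 10 were, all but IER2, against 52.4% of all tested genes. Among the tested genes of at least 100 CPM the shares were 45.0% and 46.5%. The median log2 difference of pig 95R from pig 88R was 0.39 for the 10 genes in LGR5-high and 0.25 in LGR5-negative, while that of all tested genes was 0.00 and 0.01. The pig term of the edgeR model with the replicate block, a test added after these values had been seen, called FOS, FOSB, JUN, DUSP1 and ZFP36 higher in pig 95R and none of the 10 genes lower, while 1.78% of all tested genes and 2.79% of those of at least 100 CPM were called higher. The adjusted p-values of these 5 genes ran from 0.00169 for ZFP36 to 0.0329 for FOSB, and those of the others from 0.0758 for EGR1 to 0.732 for IER2. The test takes the 2 libraries of a pig as its replicates, so it compares these 2 animals only, and how their skin was handled cannot be told apart from the animal.

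Averaged over the populations, the pigs stood farthest apart for ZFP36, DUSP1, JUN and FOS. ZFP36 was 1.40-fold and DUSP1 1.36-fold higher in LGR5-high of pig 95R, and in LGR5-negative these genes were 1.50-fold and 1.54-fold higher. FOS was 1.35-fold and 1.37-fold higher in pig 95R, and JUN 1.31-fold and 1.46-fold. In LGR5-high 6 of the 10 genes, and in LGR5-negative 4 of them, lay above the 95th percentile of the difference between the pigs for genes of at least 100 CPM. JUNB differed least among the genes that were higher in pig 95R in both populations, by 1.10-fold and 1.08-fold. For FOS, JUN and EGR1 the mean log2 difference between the pigs, 0.44, 0.47 and 0.30, was larger than that between the populations, with -0.06, -0.22 and -0.27. The other 7 genes differed more between the populations. Over all tested genes 18.7% differed more between the pigs, and over those of at least 100 CPM 12.0% did.

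Ordered by level, each of the 10 genes was lowest in LGR5-high of pig 88R, and 9 were highest in LGR5-negative of pig 95R, which held for 12.3% of all tested genes as a joint pattern. For FOSB, JUNB, JUND, ATF3, DUSP1 and ZFP36 the order continued with LGR5-high of pig 95R and LGR5-negative of pig 88R. For FOS, JUN and EGR1 those middle libraries changed places. IER2 was the exception at the top, with its highest value in LGR5-negative of pig 88R.

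**Figure D3:**
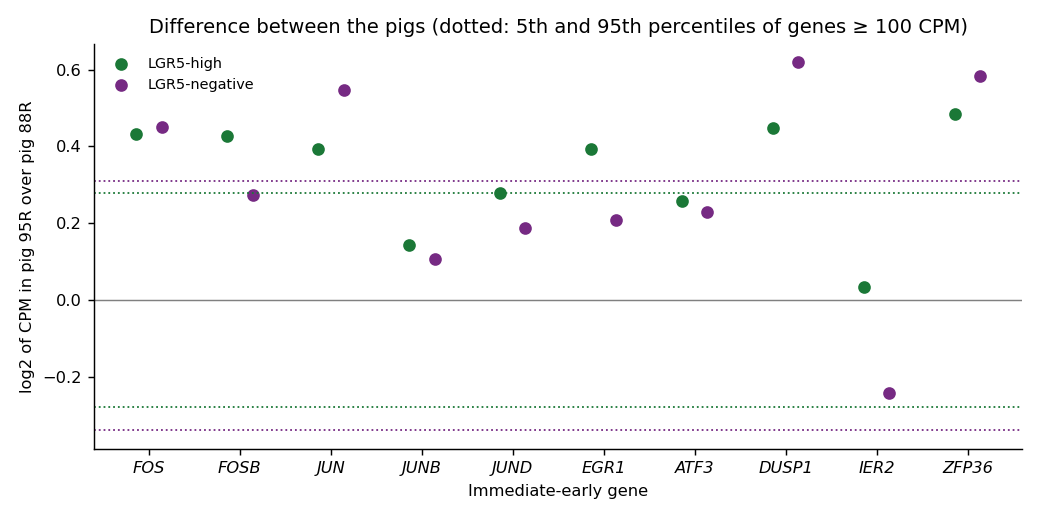
Log2 of the CPM in pig 95R over that in pig 88R (vertical axis) for each immediate-early gene, in LGR5-high (green) and LGR5-negative (purple); dotted lines are the 5th and 95th percentiles of the 2009 tested genes of at least 100 CPM in the population of that colour. Points run from -0.24 for IER2 to 0.62 for DUSP1, both in LGR5-negative, and only IER2 has a point below 0.

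The populations differ in composition of RNA, and the scaling between libraries moves every gene alike. Scaled by library size only, in place of TMM, the tested genes as a whole had a median of 0.24 and the 10 genes one of -0.21. ATF3 then was the only gene called, against 14.6% of all tested genes called lower, and FOS changed its sign to a log2 fold change of 0.16. With upper quartile scaling ATF3, FOSB and JUND were called and FOS had 0.038, while 18.3% of all tested genes were called lower. Relative to the median of all tested genes the 10 genes had the same median under TMM, upper quartile scaling and library size, -0.45. Because a scaling moves all genes alike, this sameness was fixed beforehand and is no check on the calls. The ratios of counts between genes within a library do not depend on the scaling.

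**Figure D4:**
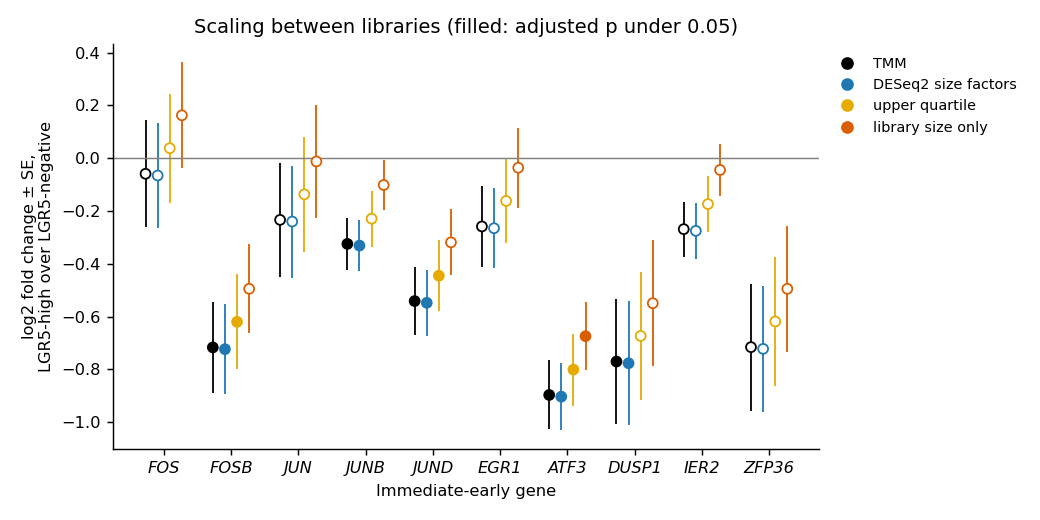
Log2 fold change of LGR5-high over LGR5-negative with standard error (vertical axis) for each immediate-early gene under 4 scalings between libraries in edgeR; filled circles had an adjusted p-value under 0.05. Values shift upward together from TMM to library size only, where ATF3 alone is filled and FOS lies above 0 at 0.16.

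Leaving out single libraries also changed the count. Without LGR5-high of pig 88R ATF3 was the only gene called lower, against 14.8% of all tested genes, and without LGR5-high of pig 95R 3 genes were, against 13%. Without LGR5-negative of pig 88R 6 genes were lower, against 17.8%, and without LGR5-negative of pig 95R 4 were, against 18.1%. FOS then had log2 fold changes above 0 without LGR5-high of pig 88R (0.13) and without LGR5-negative of pig 95R (0.17), and JUN without the latter (0.056). DESeq2 called 6 of the 10 genes lower, against 21.2% of all tested genes, limma-voom 6 against 22.1%, and the gene-by-gene test that the study's methods name 0 against 3.14%, with 1 gene, ATF3, at an unadjusted p-value under 0.05. With DESeq2 size factors 5 were lower, against 22.1%, with all genes of at least 1 count 6, against 14.8%, and with at least 10 counts in every library 4, against 22%. Over the 13 alternatives tried, the log2 fold change lay between -1.03 and -0.67 for ATF3, between -0.94 and -0.49 for FOSB and between -0.29 and 0.17 for FOS. For DUSP1 it was -0.44 without LGR5-negative of pig 95R, and the call was lost without that library and without either LGR5-high library. For ZFP36 it was -0.40 without LGR5-negative of pig 95R. EGR1 had -0.083 without LGR5-high of pig 88R, -0.16 without LGR5-negative of pig 95R and -0.46 without LGR5-high of pig 95R. JUN had -0.057 without LGR5-high of pig 88R, -0.44 without LGR5-high of pig 95R and -0.49 without LGR5-negative of pig 88R. IER2 had -0.15 without LGR5-negative of pig 88R and was called lower, with -0.39, without LGR5-negative of pig 95R. ATF3 was called under 12 of these alternatives, FOSB and JUND under 10, DUSP1 under 7, JUNB under 6, ZFP36 under 5, IER2 under 2, JUN and EGR1 under 1 and FOS under 0.

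Of the remaining transcription factor genes of the immediate-early class, 24 were tested and 17 were lower and 3 higher in LGR5-high, with a median log2 fold change of -0.95. Of all tested genes 22% were lower and 22.7% higher, and of those of at least 100 CPM 41.3% and 16.7%. The FOS family gene FOSL1 had 54.6 and 55.6 CPM in LGR5-high and 331 and 293 CPM in LGR5-negative, a log2 fold change of -2.50 (± 0.0948 SE, edgeR adjusted p = 6.28e-05). For KLF4, a Krüppel-like factor needed for the skin barrier, it was -1.56 (± 0.0883 SE). The remaining FOS relative FOSL2, named after its values had been seen, had -0.63 (± 0.0784 SE, edgeR adjusted p = 0.00189). Among the 4 FOS family genes the log2 fold change thus ran from -2.50 for FOSL1 to -0.06 for FOS. The genes called higher were HES1, a target of Notch signaling, with 0.47, NFIL3 with 0.52 and EGR2 with 0.31. Of the other EGR genes, EGR3 had 0.08 (edgeR adjusted p = 0.756) and EGR4 had -0.56 (adjusted p = 0.267). CREM and NR4A2, with -0.30 and -0.17, did not pass either. NR4A1 was not analysed here, and BATF was below the filter on low counts.

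The further effector genes of this class were divided. Of 34 tested, 16 were lower and 9 higher, with a median log2 fold change of -0.37. The shares were 22% and 22.7% over all tested genes, with 41.3% lower and 16.7% higher among the abundant ones. Growth factor feedback gene ERRFI1, an inhibitor of the epidermal growth factor receptor, had 125 and 120 CPM in LGR5-high and 651 and 611 CPM in LGR5-negative. Its log2 fold change was -2.37 (edgeR adjusted p = 6.16e-05), and that of NFKBIZ, a regulator of NF-kappaB targets, was -1.94. In the other direction the matricellular gene CTGF had 850 and 1147 CPM in LGR5-high and 35.4 and 55.4 CPM in LGR5-negative, a log2 fold change of 4.46 (edgeR adjusted p = 0.000185). DUSP10, a relative of DUSP1 that acts on stress-activated kinases, had 3.71 (edgeR adjusted p = 0.000192). The relatives of the feedback genes and of IER2 on this list, all given here, were chosen after their values had been seen, and they did not share 1 direction. Of the other DUSP genes DUSP2 (2.66), DUSP8 (1.63) and DUSP6 (0.85) were higher too, opposite to DUSP1, while DUSP4 (-0.44) and DUSP5 (0.19) did not pass. IER3 and IER5L were higher, each with 1.04, and IER5 was lower with -0.82. ZFP36L1 and ZFP36L2 were lower with -0.98 and -0.35, the latter without its call under library size only.

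Among the kinases and factors that act upstream, 13 of 31 tested genes were lower and 4 were higher, with a median of -0.18 that became 0.04 with library size only. Over all tested genes 22% were lower and 22.7% higher, and over the abundant ones 41.3% and 16.7%. The 31 upstream genes summed to only 1598 to 2239 CPM in a library, so the abundant genes are not matched to them in level. SRF encodes the serum response factor, which binds the promoters of FOS and EGR1. It had 110 and 104 CPM in LGR5-high and 232 and 233 CPM in LGR5-negative, with a log2 fold change of -1.12 (edgeR adjusted p = 0.000258). ELK3, a partner of the serum response factor, was higher with 3.06, as were the p38 kinase genes MAPK12 with 2.24 and MAPK11 with 3.43, and MAP2K1 with 0.60.

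Genes that AP-1 is known to control in keratinocytes or cultured cells were mostly lower, 13 of 19 tested with 1 higher, and their median was -0.73. Beside these and the heat shock genes below, 22% of all tested genes were lower and 22.7% higher. Among the abundant genes the shares were 41.3% and 16.7%. For PLAU, the urokinase gene, the log2 fold change was -2.13, and for TGM1, a crosslinking enzyme of the cornified layer, -2.11. The growth factor gene TGFA was the higher one, with 1.31. Without LGR5-high of pig 95R 8 of these genes were lower, and the number higher was 0 without LGR5-high of pig 88R and 2 without LGR5-negative of pig 95R. Of the heat shock genes, another class known to rise during dissociation, 9 of 16 tested were lower and 3 were higher, with a median of -0.50. The cochaperone genes DNAJB4 and BAG3 had log2 fold changes of -2.53 and -1.87. The higher ones were HSPB1 with 1.05, HSPE1 with 0.49 and HSP70.2, the entry that RefSeq gives the synonyms HSPA1A and HSPA1B, with 0.37, and without LGR5-high of pig 95R 1 was higher. The median log2 difference of pig 95R from pig 88R over these chaperone genes was 0.08 in LGR5-high and -0.05 in LGR5-negative. Their summed level was 5901 and 6660 CPM in LGR5-high and 7864 and 7745 CPM in LGR5-negative of pigs 88R and 95R.

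**Figure D5:**
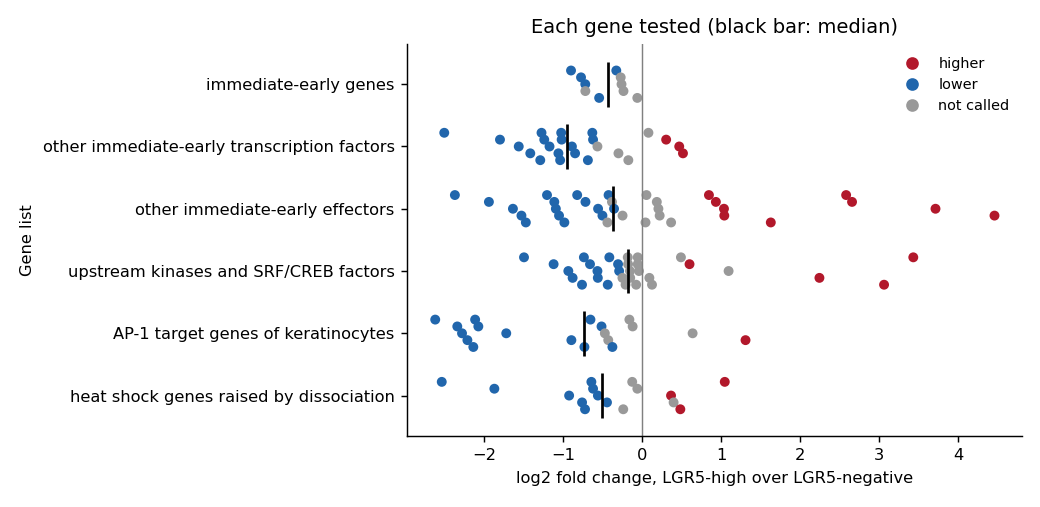
Log2 fold change of LGR5-high over LGR5-negative (horizontal axis) for each tested gene of the immediate-early genes and the 5 further lists; blue was lower and red higher at an adjusted p-value under 0.05, grey did not pass, and black bars are medians. The immediate-early genes lie between -0.90 and -0.06, inside the range of each of the 5 further lists.

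Cell type markers moved with the populations. The shares over all tested genes were 22% lower and 22.7% higher. Of the suprabasal keratinocyte list 6 of 7 genes were lower in LGR5-high, all but IVL. The leukocyte list, Langerhans cells included, had 4 of 5 tested genes lower, and its summed level was 7.30 to 9.42 CPM in LGR5-high and 91.7 to 136 CPM in LGR5-negative. Melanocyte markers summed to 61.9 CPM in both LGR5-high libraries and to 82.7 and 256 CPM in LGR5-negative, with 4 of 6 tested genes lower. With the replicate block 5 of these were lower and 1 was higher, and with library size only 4 were lower and 1 was higher. Endothelial markers summed to 6.11 to 7.48 CPM and 20.8 to 20.9 CPM, with 4 of 5 lower. The fibroblast list was split, with 2 genes higher and 4 lower and sums of 728 to 1010 CPM in LGR5-high and 248 to 404 CPM in LGR5-negative. The T cell marker CD3E had 0 counts in both LGR5-high libraries. Smooth muscle and pericyte markers summed to 16.1 to 16.5 CPM and 4.46 to 5.20 CPM with 4 of 4 tested genes higher, and nerve and Schwann markers to 13.8 to 19.3 CPM and 3.30 to 8.77 CPM with 2 of 4 higher and 1 lower. The hair follicle list had 5 of 7 genes higher and none lower, and 3 of 5 basal keratinocyte genes were lower. LGR5, on whose reporter the cells were sorted, is on the hair follicle list, so its difference was set by the sort. The part of these cells in the differences of the immediate-early genes was not tested.

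Outside all lists, 9508 tested genes of at least 10 CPM were ranked by how closely their log2 levels over the 4 libraries followed the mean pattern of the 10 genes. The nearest were VWA8, EIF4A2, CCDC174, C13H21orf91 and TMC7, with root mean square differences of 0.025 to 0.034 on the log2 scale. EIF4A2, a translation initiation helicase gene, had 519 and 659 CPM in LGR5-high and 765 and 889 CPM in LGR5-negative of pigs 88R and 95R. Over 4 libraries many genes can share a pattern by its 3 differences alone, and the 10 genes themselves lay between 0.054 for JUND and 0.242 for IER2 from their own mean.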

How the data were processed

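RNA of sorted LGR5-high and LGR5-negative epidermal cells of 2 pigs was sequenced by the study as paired-end reads after poly(A) selection, 1 library for each population and pig. The values are raw read counts, deposited by the authors by gene symbol and not normalized. The submitters' processing notes name Trimmomatic 0.36, STAR 2.5.2b and featureCounts of Subread 1.5.2. The genome build, annotation and strand setting are not given in the sources used here, so reads of antisense partners and of overlapping genes could not be told apart. How reads that match several related genes were counted is not given either. An entry without a name, 0.36% to 0.626% of counts, was left out, and all 29837 names matched a RefSeq symbol of Sscrofa11.1, used for names only.

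The tests were run with edgeR 4.0.16 (R 4.3.3). The function filterByExpr (minimum count 10, minimum total 15) left 15980 genes, and TMM set the scaling. Population was the sole factor of the quasi-likelihood model, and 2-sided p-values were adjusted after Benjamini and Hochberg over these genes and called at 0.05. The study's methods name Student's t-test, which was an alternative. A floor of 3 counts corresponded to 0.0873 to 0.105 CPM, far below all 10 genes. Fold changes between pigs over all genes used log2(CPM + 1). The labels name the pig, which pairs the libraries. After removal of the population means, the 2 libraries of a pig correlated at 0.370. The labels do not say whether the sorts were repeated, so the p-values of the main test rest on the spread between 2 animals. That spread, too, was estimated partly from all genes. With the replicate block the mean difference between the animals is removed. Those p-values rest on how alike the population difference was in both animals, with the spread estimated partly from all genes.

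The genes, the lists and their names in the text were chosen with earlier results of these data known. Named were the 10 genes, from each list the 2 called genes with the smallest adjusted p-value in each direction, groups of 5 or fewer in full, and the 5 genes nearest in pattern. For 1 gene that this rule names, the result is not reported here. Alternatives were 3 other scalings, 2 other filters, the replicate block, DESeq2 1.42.0, limma-voom (limma 3.58.1), Student's t-test and leaving out each library. The fits were tested on simulated data. In the simulated comparison of LGR5-high with LGR5-negative over 15864 genes, edgeR recovered 59 of 86 genes changed by 1 and 111 of 114 changed by 2 on the log2 scale. It made 13 calls among unchanged genes. All 10 immediate-early genes changed by less than 1, and changes of that size were not simulated. Every simulated gene had the same spread, no difference between the pigs was set, and far fewer genes changed than in the data. The recovery therefore does not measure how well the calls hold in the data. Plots were drawn with matplotlib 3.10.9.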

Additional observations from a re-analysis of the deposited data

How the results depend on the processing

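Of 130 log2 fold changes of the 10 genes under the 13 alternatives, 96 kept direction and side of the threshold, 20 lost the call, 9 gained it and 5 changed sign, and for the changes no cause was tested. FOS changed sign with upper quartile scaling (0.038), with library size only (0.16) and without single libraries (-0.29 to 0.17), and JUN without single libraries (-0.49 to 0.056). The number of the 10 genes called lower, 5 in the main test, was 3 with upper quartile scaling, 1 with library size only, 9 with the replicate block and between 1 and 6 without single libraries. The numbers were 6 with DESeq2 and with limma-voom. Student's t-test called 0 of them, with 1 at an unadjusted p-value under 0.05. In simulated data of this size, where far fewer genes changed, it made no call, which does not explain the 0. Of all tested genes in the data it called 3.14% lower. In the lists it called 0 higher and 6 lower of the other transcription factors, 1 and 2 of the effectors, 1 and 2 of the upstream genes, 0 and 0 of the AP-1 targets and 0 and 3 of the heat shock genes. With library size only 8 upstream genes were lower. With the replicate block 2 AP-1 targets were higher. Without single libraries 0 to 2 AP-1 targets were higher and 8 to 12 lower, and 1 to 3 heat shock genes were higher. The replicate block changed the number of calls by no more than 1.5 times in the other lists. For 1 gene alone, exact permutation of 2 against 2 libraries allows no 2-sided p below 0.333. In the test between the pigs, where these alternatives were chosen after seeing the data, 4 to 6 of the 10 genes were higher in pig 95R under the 3 other scalings and 2 other filters. Leaving out a library there leaves no residual degrees of freedom and was not run.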
